A study of Mus musculus with 40 samples.

Results

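Alad, Hdhd3, Psmc3ip, Sdr39u1, Nnt, Glo1, Entpd4, Wdfy1 and Ide are 9 mouse genes chosen by their FPKM levels in skin, which step between groups of samples, or because they are known to vary in copy number or sequence between mouse stocks. They are 9 of the 23304 gene symbols of a table of 40 RNA-seq libraries, and each has 1 row in it. Because skin values chose some of them, every comparison of the genes in skin is a description without a test. The question was whether the stock from which the mice came moves together with the treatment.

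The libraries form 10 groups of 4. In whole ear skin, DTR mice were a cross of the Cre line with C57BL/6 mice carrying Gt(ROSA)26Sortm1(HBEGF)Awai, a diphtheria toxin receptor gene that Cre switches on, and Cre mice carried the Mrgprdtm1.1(cre)And allele on a background named B6.129S1(Cg). The Cre allele at Mrgprd, a gene that marks a class of sensory neurons, was therefore present in both groups. The treatment labels give DTR mice intraperitoneal diphtheria toxin (DT) with acetone and olive oil, and Cre mice acetone and olive oil only, while the protocol text gives DT to both for 3 to 4 weeks; which holds was not settled. Skin of wild-type mice labelled C57BL/6J received 50 mM β-alanine or PBS once a day for 2 days. Sorted mast cells came from DTR and Cre mice that bear the same strain and treatment labels. Between DTR and Cre mice, in skin as in sorted cells, cross, strain label, receptor gene and labelled treatment differ together and cannot be told apart. Peritoneal mast cells labelled C57BL/6J were cultured 6 h with 4 mM glutamate or vehicle in glutamate-free Tyrode's buffer, or 48 h with 50 uM NS102, an antagonist of kainate-type glutamate receptors, or vehicle. Ages, the number of animals per library and the origin of the wild-type colony are not given in the sources used here, and where libraries of a group do not come from separate animals or cultures, p-values measure technical spread only. The labels call skin and sorted samples epidermal, whereas the design text speaks of the whole ear.

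Inbred mouse stocks that share a name can differ by large duplications, deletions and single variants. Lines made in 129 embryonic stem cells and crossed to C57BL/6 keep 129 segments around the altered gene and, until bred out, elsewhere. Such differences can change the RNA of a few genes by a step, and a step like this between treated and control groups can be taken for a treatment response. Known examples among the 9 are a tandem duplication that holds Alad in some inbred strains, a duplication with Glo1, a deletion within Nnt in C57BL/6J, and a segment of chromosome 19 with Ide and Fgfbp3 whose copy number varies among C57BL/6J mice.

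Depth is unknown, since the table holds FPKM (fragments per kilobase of transcript, scaled to library size) and no counts, and total FPKM per library ranged from 117574 to 508485. Keratinocyte markers (6 genes) summed to 11802 to 14450 FPKM in skin and to at most 8.31 FPKM in mast cells, and mast cell markers (9 genes) to at least 9727 FPKM in mast cells. The sex-linked genes split the groups. Xist, made from the inactive X chromosome, lay at 24.5 to 37.1 FPKM in DTR and Cre skin, where Ddx3y, Eif2s3y, Kdm5d and Uty of the Y chromosome were listed at 0 in every library. In β-alanine and PBS skin Xist reached at most 0.101 FPKM and Ddx3y lay at 11.8 to 19.2 FPKM. Sorted cells had Xist at 0.0281 FPKM or less and Ddx3y at 4.42 to 8.38 FPKM, so the sorted DTR and Cre cells did not come from animals of the same sex pattern as the DTR and Cre skin. Cultured cells had Xist at 1.49 to 3.30 FPKM and Ddx3y listed at 0. Sex, labelled stock and solvent therefore all differ between DTR or Cre skin and β-alanine or PBS skin and cannot be told apart.

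Alad and Hdhd3 lie side by side on chromosome 4 (mm9, Alad at 62167017 to 62181097 and Hdhd3 at 62160087 to 62163234). Alad encodes the enzyme that joins aminolevulinate molecules in haem synthesis, and Hdhd3 a hydrolase-like protein of the haloacid dehalogenase family. Of the 9 genes, 6 have a promoter in the RefSeq table (GRCm38.p6). The upstream 250 bases of both are shown because these neighbours stepped together, with capitals marking CCAAT and GGGCGG on either strand. They were read at chr4:62520064-62520313 for the first of the listed Alad starts and chr4:62502201-62502450 for Hdhd3, both on the minus strand.
Alad: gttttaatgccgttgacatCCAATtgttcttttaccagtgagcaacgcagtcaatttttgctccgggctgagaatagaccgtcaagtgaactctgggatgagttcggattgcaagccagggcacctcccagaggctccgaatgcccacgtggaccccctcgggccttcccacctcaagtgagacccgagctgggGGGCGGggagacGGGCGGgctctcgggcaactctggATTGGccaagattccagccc
Hdhd3: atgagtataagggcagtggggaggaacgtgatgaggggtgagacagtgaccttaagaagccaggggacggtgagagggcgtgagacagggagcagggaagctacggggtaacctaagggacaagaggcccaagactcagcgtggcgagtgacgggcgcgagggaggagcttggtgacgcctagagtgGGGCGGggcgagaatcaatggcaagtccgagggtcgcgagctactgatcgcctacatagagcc
The Alad window held 2 CCAAT and 2 GGGCGG matches, and the Hdhd3 window 0 and 1. The window of the second listed Alad start (chr4:62519910-62520159), not shown, held 1 CCAAT and 6 GGGCGG matches. CCAAT is found in 33.8% and GGGCGG in 32.7% of all 32851 promoter windows of this length. TATAAA, found in 12.4%, was in none of these Alad and Hdhd3 windows.

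Both genes stood higher in DTR skin. Alad had 24.1, 24.3, 20.04 and 20.98 FPKM in the 4 DTR libraries, against 9.66, 9.43, 8.85 and 8.29 FPKM in the 4 Cre libraries. All DTR libraries lay above all Cre libraries, and the means of 22.4 ± 2.18 FPKM in DTR and 9.06 ± 0.615 FPKM in Cre skin (SD, n = 4 each) differ 2.47-fold. Hdhd3 had 5.98, 6.92, 6.16 and 4.61 FPKM in DTR skin, against 2.50, 2.45, 2.23 and 2.28 FPKM in Cre skin, a 2.50-fold difference of means that again left no overlap. Ranked by the size of the log2 difference, Alad was 23rd and Hdhd3 48th among 12560 genes that reached 1 FPKM in at least 4 of the 8 libraries. Skin values chose members of the set, so nothing is read from these ranks. The Hdhd3 to Alad ratio averaged 0.265 ± 0.0387 in DTR and 0.261 ± 0.00970 in Cre skin, so the pair differed by nearly the same factor.

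The genes directly beside the pair did not share the step. Bspry, the gene next to Hdhd3, had 11.8, 11.2, 10.3 and 11.5 FPKM in DTR skin, against 10.3, 10.2, 11.3 and 12.7 FPKM in Cre skin. Pole3, the gene next to Alad and a subunit of DNA polymerase epsilon, had 38.9, 42.6, 35.04 and 37.5 FPKM in DTR skin, against 44.5, 41.3, 41.4 and 41.5 FPKM in Cre skin. Both overlapped between the groups, with log2 differences of 0.01 for Bspry and -0.13 for Pole3, against 1.21 for Alad and 1.03 for Hdhd3. Farther along chromosome 4, Gm13305 (42339259 to 42349021, 19.8 Mb from Alad) was the gene most like Alad over the 16 skin libraries (r = 0.95). It had 7.85, 6.98, 7.57 and 7.62 FPKM in DTR skin, against 2.13, 2.67, 2.91 and 2.82 FPKM in Cre skin, and averaged 2.80 ± 0.572 FPKM in β-alanine and 3.15 ± 0.582 FPKM in PBS skin (SD, n = 4 each). Every DTR library lay above every other skin library in this gene. The table lists Gm13305 in 3 rows on chromosome 4, so reads may be divided among near copies and its level is uncertain. N28178, 19.2 Mb from Alad and the third most like it (r = 0.87), averaged 4.08 ± 0.286 FPKM in DTR and 2.97 ± 0.231 FPKM in Cre skin (SD, n = 4 each), also without overlap.

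**Figure D1:**
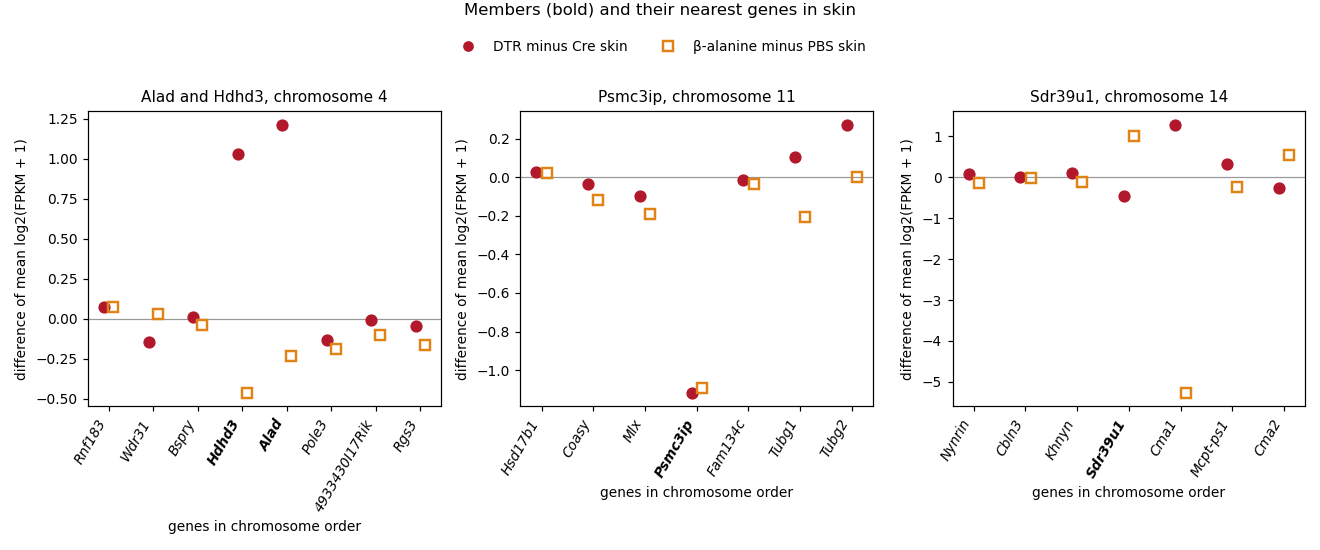
Difference of mean log2(FPKM + 1) in skin (vertical axis, own scale in each panel) for the genes around Alad and Hdhd3, Psmc3ip and Sdr39u1, in chromosome order (horizontal axis). Filled circles are DTR minus Cre skin and open squares β-alanine minus PBS skin, each over 4 libraries a group; in DTR minus Cre skin Alad, Hdhd3 and Psmc3ip, in bold, stand away from the genes beside them, and Cma1 runs opposite to Sdr39u1 in both comparisons.

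In C57BL/6J-labelled skin Alad stayed below the DTR libraries, and Hdhd3 reached into their range. Alad had 12.2, 12.1, 9.13 and 9.24 FPKM in β-alanine skin, against 11.9, 12.6, 11.6 and 14.3 FPKM in PBS skin, and these groups overlapped each other. All 4 DTR libraries lay above every PBS library (1.77-fold by means) and all 4 Cre libraries below them (0.718-fold). The order of Alad means in skin was DTR, PBS, β-alanine and Cre; PBS and β-alanine overlapped, as did β-alanine and Cre. Hdhd3 had 4.42, 3.82, 2.38 and 2.71 FPKM in β-alanine skin, against 4.43, 5.86, 3.72 and 5.69 FPKM in PBS skin. For Hdhd3 the PBS libraries overlapped the DTR libraries and lay above all Cre libraries. β-alanine libraries 1 and 2 lay above libraries 3 and 4 in both genes. Over the 16 skin libraries the 2 genes had r = 0.87 on the log2 scale; libraries of a group share their treatment, so this describes group steps as much as single libraries.

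**Figure D2:**
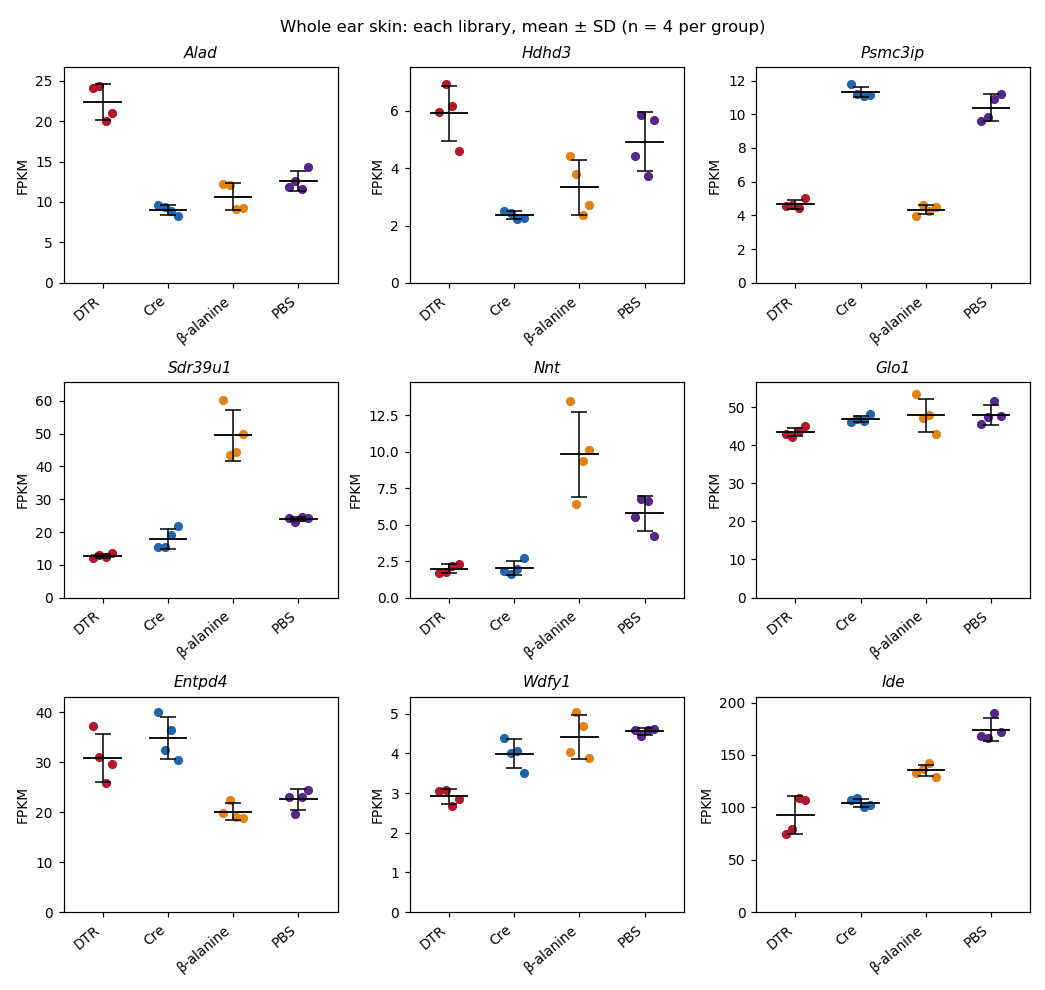
FPKM (vertical axis, from 0) of the 9 genes in each skin library, by group (horizontal axis). Points are libraries and bars the mean ± SD of 4; Alad is highest in DTR skin (22.4 FPKM), Psmc3ip is low in DTR and β-alanine skin, and Nnt is low in DTR and Cre skin.

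Alad did not carry its skin step into sorted mast cells. It had 2.16, 2.72, 1.33 and 1.97 FPKM in sorted DTR cells, against 1.68, 2.40, 1.43 and 2.38 FPKM in sorted Cre cells, fully overlapping, with a log2(FPKM + 1) change of 0.03 (SE 0.23, limma adjusted p = 0.933). The sign of this change turned when DTR library 2 (-0.07), Cre library 1 (-0.02) or Cre library 3 (-0.06) was left out. Hdhd3 had 1.26, 1.19, 0.441 and 0.918 FPKM in sorted DTR cells, against 0, 1.11, 0.612 and 0 FPKM in sorted Cre cells. It did not reach the filter of 1 FPKM in 4 libraries and was not tested.

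Other enzymes of haem synthesis differed less than Alad between DTR and Cre skin. Of 9 genes of the pathway, 3 lay above and 2 below without overlap in DTR against Cre skin, while 21.4% of all filtered genes did not overlap there (11.8% above and 9.6% below). Besides Alad these were Uros at 2.13 ± 0.236 FPKM in DTR and 1.55 ± 0.271 FPKM in Cre skin, and Ppox at 5.93 ± 0.355 FPKM in DTR and 5.02 ± 0.490 FPKM in Cre skin (SD, n = 4 each). Urod and Fech were the lower ones. The list's median log2 difference was 0.03, against 0.01 over all filtered genes.

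Psmc3ip, whose product acts in the pairing of chromosomes in meiosis, was low in both treated skins. On chromosome 11 (100953454 to 100956749) it had 4.56, 4.62, 4.46 and 5.06 FPKM in DTR skin, against 11.8, 11.2, 11.1 and 11.1 FPKM in Cre skin. It had 4.00, 4.60, 4.28 and 4.50 FPKM in β-alanine skin, against 9.59, 9.85, 10.9 and 11.2 FPKM in PBS skin. The means were 0.413-fold in DTR over Cre and 0.418-fold in β-alanine over PBS skin, with no overlap in either comparison. DTR libraries overlapped β-alanine libraries and Cre libraries overlapped PBS libraries, although these pairs carry different strain labels and sex patterns. β-alanine and PBS libraries both carry the label C57BL/6J, and DTR and Cre libraries both the Mrgprd Cre allele. A label does not give the genotype at Psmc3ip, and the part of stock in its step was not tested.

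Few genes divided the skin libraries in this way. Of 12944 filtered genes, 0.0464% (6 genes) kept all 8 DTR and β-alanine libraries apart from all 8 Cre and PBS libraries, 5 of them below (0.0386%) and 1 above (0.00773%). Beside Psmc3ip the lower ones were Fos, Pxdc1, Tspan6 and 1700052K11Rik, and the higher one was Dsp, a desmosome protein; these names came from the values. Fos, an immediate early gene that responds to many stimuli and to tissue handling, was the gene most like Psmc3ip over the 16 libraries (r = 0.90) among 12944. It had 6.25, 5.71, 4.73 and 4.92 FPKM in DTR skin, against 11.2, 23.3, 18.1 and 10.3 FPKM in Cre skin. In the other pair it had 3.10, 3.92, 3.43 and 3.07 FPKM in β-alanine skin, against 8.45, 10.3, 11.6 and 10.9 FPKM in PBS skin. Psmc3ip and Fos were also the 2 genes of 12360 at least 2-fold lower without overlap in both comparisons, and 8 genes, among them Cma1, Cpa3 and Mcpt4 of mast cells, were higher in DTR and lower in β-alanine skin by that rule. The rule was met by 0.693% of filtered genes in DTR against Cre skin and by 0.158% in β-alanine against PBS skin.

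Mlx beside Psmc3ip and its partner Mnd1 did not share its pattern. Mlx, a transcription factor gene, shares 68 bases with Psmc3ip in the table's coordinates; whether strand was used in counting is not given in the sources used here, so reads from these bases cannot be told apart. Mlx averaged 12.6 FPKM in DTR and 13.5 FPKM in Cre skin. Mnd1, which works in a pair with the Psmc3ip protein, averaged 11.7 ± 1.22 FPKM in DTR and 11.2 ± 0.615 FPKM in Cre skin (SD, n = 4 each), and the groups overlapped.

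In sorted mast cells Psmc3ip ran the other way. It had 3.06, 2.86, 1.00 and 1.68 FPKM in sorted DTR cells, against 0, 0.560, 1.12 and 0 FPKM in sorted Cre cells. DTR library 3 fell just below Cre library 3, and the other 3 DTR libraries lay above all Cre libraries. The log2(FPKM + 1) change was 1.17 (SE 0.28, limma adjusted p = 0.00246), or 1.04 above the median change of all genes. With 2 libraries listed at 0 its size rests on the added 1, being 2.79 with 0.1 added and 0.39 with 5 added, and the call was lost without the filter (adjusted p = 0.0615). Cells cultured with glutamate had 1.00 to 1.41 FPKM, against 0.721 to 1.15 FPKM with vehicle, a change of 0.21 (limma adjusted p = 0.0358) that did not pass when any of 5 single libraries was left out (adjusted p up to 0.120). In both comparisons Psmc3ip passed the filter through its higher group, so nothing is read from these p-values.

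Sdr39u1, a member of the short-chain dehydrogenase family, stepped in opposite directions. On chromosome 14 (56516121 to 56519069) it had 12.01, 13.1, 12.2 and 13.5 FPKM in DTR skin, against 15.3, 15.5, 18.96 and 21.9 FPKM in Cre skin. It had 60.2, 43.4, 44.4 and 49.9 FPKM in β-alanine skin, against 24.2, 22.9, 24.5 and 24.2 FPKM in PBS skin. No group overlapped another, the order being β-alanine, PBS, Cre and DTR, and the fold of means was 2.07 for β-alanine over PBS and 0.711 for DTR over Cre. The next gene, Cma1, a mast cell chymase, moved against it in both comparisons. Cma1 had 46.2 to 56.1 FPKM in DTR and 15.8 to 23.6 FPKM in Cre skin, and 0.573 to 1.77 FPKM in β-alanine and 71.1 to 89.6 FPKM in PBS skin. Khnyn, on the other side of Sdr39u1, averaged 7.21 ± 0.816 FPKM in DTR and 6.65 ± 0.538 FPKM in Cre skin, and 4.45 ± 0.335 FPKM in β-alanine and 4.84 ± 0.267 FPKM in PBS skin (SD, n = 4 each).

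The makeup of the skin samples also differed between these groups. Mast cell markers summed to 199 to 243 FPKM in DTR and 67.1 to 88.8 FPKM in Cre skin, and to 4.21 to 7.42 FPKM in β-alanine and 211 to 260 FPKM in PBS skin. Skeletal muscle markers (6 genes) summed to 436 to 614 FPKM in DTR and 854 to 1941 FPKM in Cre skin, and to 1352 to 2946 FPKM in β-alanine and 1154 to 2389 FPKM in PBS skin. Adipocyte markers (5 genes) summed to 185 to 217 FPKM in DTR and 425 to 522 FPKM in Cre skin, and to 542 to 1087 FPKM in β-alanine and 410 to 975 FPKM in PBS skin. None of the 20 markers was listed at 0 throughout a skin group. In such bulk tissue fewer cells of a type and less RNA per cell cannot be told apart, and the part of these cells in the levels of the 9 genes was not tested.

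Nnt, the mitochondrial enzyme that makes NADPH from NADH, separated DTR and Cre skin from C57BL/6J-labelled skin. On chromosome 13 (120123123 to 120197945) it had 1.69, 1.72, 2.16 and 2.30 FPKM in DTR skin, against 1.85, 1.63, 1.97 and 2.68 FPKM in Cre skin, an overlap. It had 13.5, 6.39, 9.34 and 10.1 FPKM in β-alanine skin, against 5.49, 6.78, 6.61 and 4.20 FPKM in PBS skin, with 1 β-alanine library below 2 PBS libraries. All 8 C57BL/6J-labelled libraries, at 4.20 FPKM or more, lay above all 8 DTR and Cre libraries, at 2.68 FPKM or less. The libraries labelled with the stock known for a deletion inside Nnt were therefore the ones with more Nnt RNA; a gene-level FPKM does not show which exons the reads cover. Among the genes most like Nnt in skin were Dnase1l1 (r = 0.97), the complement gene C7 (r = 0.96) and Ndufs1, a subunit of respiratory complex I (r = 0.96).

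Mast cells did not repeat this split. Nnt had 3.49, 5.40, 2.42 and 2.84 FPKM in sorted DTR cells, against 3.02, 1.95, 2.98 and 3.04 FPKM in sorted Cre cells (log2 change 0.25, SE 0.25, limma adjusted p = 0.465). These spanned the levels of the 4 cultured groups labelled C57BL/6J, which lay between 1.98 and 4.70 FPKM. Cells of the C57BL/6J label and cells of the DTR and Cre lines thus overlapped in Nnt, and culture and tissue of origin differ between them as well.

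Entpd4, a nucleotide-hydrolysing enzyme of internal membranes on chromosome 14 (69955207 to 69984799), also divided skin in this way, in the reverse direction. It had 37.3, 31.1, 25.8 and 29.6 FPKM in DTR skin, against 40.02, 32.4, 36.5 and 30.5 FPKM in Cre skin, and 19.9, 22.5, 19.004 and 18.8 FPKM in β-alanine skin, against 23.1, 19.7, 23.1 and 24.5 FPKM in PBS skin. Groups overlapped within each pair, and every DTR or Cre library lay above every C57BL/6J-labelled one. Of the 9 genes, Entpd4 lay above and Sdr39u1, Nnt and Ide lay below in all 8 DTR and Cre libraries against all 8 C57BL/6J-labelled libraries. Among all filtered genes 24.4% did not overlap in this comparison (7.28% above and 17.1% below), so 4 of 9 is a pattern many genes shared. Of 48 genes nearest to the 9, 20 of the 30 that passed the filter (66.7%) did not overlap between Cre and PBS skin, and 51.5% of all filtered genes did not. In DTR against Cre skin 20% of such neighbours did not overlap (background 21.4%), and in β-alanine against PBS skin 6.45% did not (background 6.44%).

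Entpd4 and Ide were higher in sorted DTR cells, which their skin values did not show. Entpd4 had 30.9, 35.7, 19.8 and 19.9995 FPKM in sorted DTR cells, against 9.24, 10.7, 8.60 and 19.3 FPKM in sorted Cre cells. The groups did not overlap, but Cre library 4 came close to the lowest DTR library. The log2 change was 1.11 (SE 0.27, limma adjusted p = 0.00315), or 0.98 above the median of all genes. Without Cre library 4 the change was 1.35.

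Ide, the insulin-degrading metallopeptidase on chromosome 19 (37343230 to 37405103), had 12.5, 11.2, 9.29 and 7.74 FPKM in sorted DTR cells, against 5.65, 4.59, 4.74 and 3.32 FPKM in sorted Cre cells. Every DTR library lay above every Cre library, with a log2 change of 1.00 (SE 0.24, limma adjusted p = 0.00252), or 0.87 above the median. With Psmc3ip, these were the 3 of 8 tested genes that rose in sorted DTR cells, and 0 of the 8 fell. Over all genes 35.8% passed the same test (18.9% higher and 16.9% lower), and with 8 genes nothing is read from the difference in direction. Glo1 (0.60, adjusted p = 0.0697) and Sdr39u1 (0.57, adjusted p = 0.0898) did not pass, and Wdfy1 was at -0.16 (adjusted p = 0.656).

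**Figure D3:**
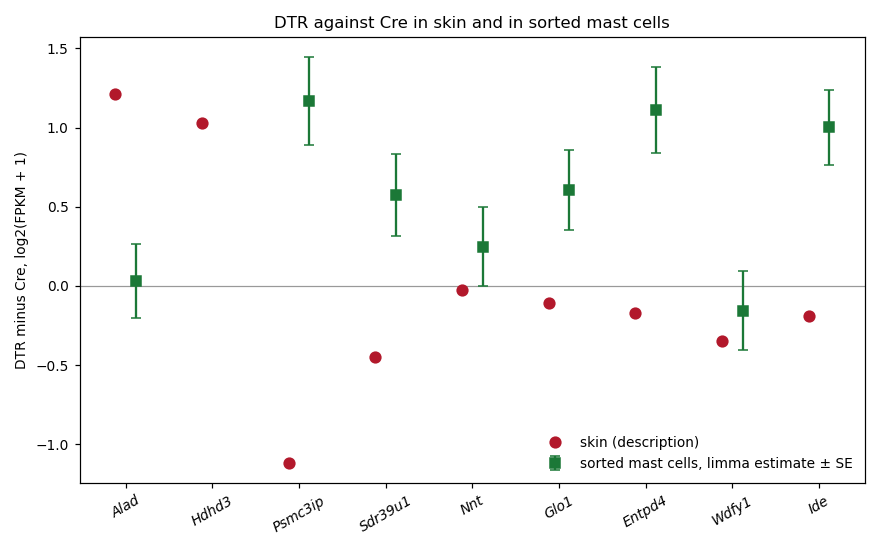
DTR minus Cre on the log2(FPKM + 1) scale (vertical axis) for the 9 genes (horizontal axis). Circles are differences of means in skin, given without error as a description, and squares are limma changes ± SE in sorted mast cells (4 libraries a group, Hdhd3 not tested); Alad stands at 1.21 in skin and 0.03 in sorted cells, and Psmc3ip at -1.12 and 1.17.

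The sorted groups differed in more than these genes. Macrophage markers (6 genes) summed to 6.82 to 17.4 FPKM in sorted DTR and 41.3 to 51.2 FPKM in sorted Cre cells, and mast cell markers to 17876 to 29206 FPKM in sorted DTR and 9727 to 14227 FPKM in sorted Cre cells. The mast cell markers did not all move with their sum. Of these 9 genes 5 were called higher and 2 lower in sorted DTR cells, against 18.9% and 16.9% of all genes. Of 5 tested macrophage markers 0 were called higher and 3 lower. Red blood cell markers (5 genes) summed to 481 FPKM in sorted Cre library 2 and to at most 1.91 FPKM in the other sorted libraries; without Cre library 2 the changes were 1.24 for Psmc3ip, 1.09 for Entpd4 and 1.01 for Ide. The part of macrophages and of mast cell purity in these changes was not tested.

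Ide showed a split inside 1 group. In DTR skin it had 74.8, 79.3, 109 and 107 FPKM, against 107, 108, 100.2 and 102 FPKM in Cre skin. DTR libraries 3 and 4 sat at the level of the Cre libraries, and libraries 1 and 2 lay below every other skin library. It had 133, 137, 142 and 129 FPKM in β-alanine skin, against 168, 166, 190.1 and 172 FPKM in PBS skin, without overlap (0.777-fold by means).

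Fgfbp3, which binds and releases fibroblast growth factors and is the other gene known from the variable segment with Ide, split the same DTR libraries. On chromosome 19 (36992039 to 36994089) it had 2.65, 2.87, 6.74 and 6.43 FPKM in DTR skin, against 7.84, 7.77, 7.07 and 7.75 FPKM in Cre skin. Libraries 1 and 2 were again the low ones, by more than in Ide. Of the genes listed between them that reached 1 FPKM, Btaf1 had 5.57, 5.47, 5.93 and 6.34 FPKM in the 4 DTR libraries, so libraries 1 and 2 were the lower ones there too, by far less. Cpeb3, at 2.52, 2.37, 2.33 and 2.60 FPKM, did not divide the libraries in this way, nor did the gene listed as 5-Mar. This was noticed in the values, and no test was run, since the libraries would be divided by the outcome itself. The division was not particular to this segment. DTR libraries 1 and 2 also lay apart from 3 and 4 in genes of other chromosomes. Alad had 24.1 and 24.3 against 20.04 and 20.98 FPKM, and Nnt 1.69 and 1.72 against 2.16 and 2.30 FPKM. Wdfy1, Glo1 and Entpd4 divided these libraries too, whereas Hdhd3, Psmc3ip and Sdr39u1 did not. Fgfbp3 had 2.92, 5.57, 4.75 and 5.09 FPKM in β-alanine skin, against 6.88, 5.05, 7.64 and 7.33 FPKM in PBS skin, so its mean was lower with β-alanine, as that of Ide was, but its libraries overlapped. Ide was higher in every PBS library than in every Cre library, whereas PBS and Cre libraries overlapped in Fgfbp3. Over all 16 skin libraries the 2 genes had r = 0.38.

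**Figure D4:**
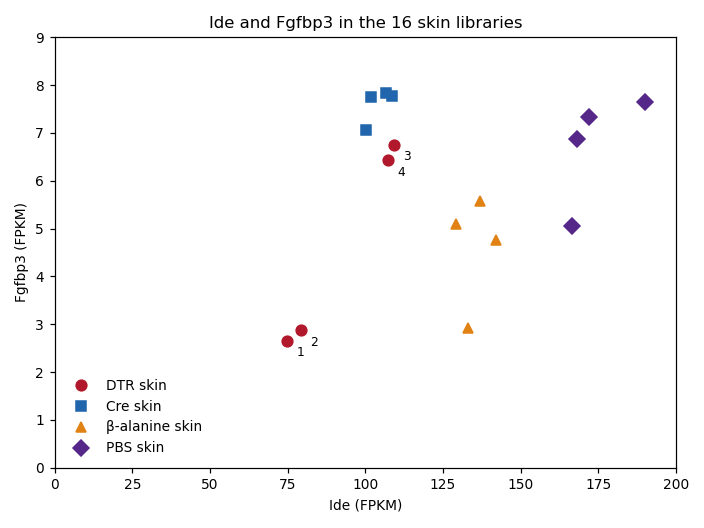
Ide (horizontal axis, FPKM) against Fgfbp3 (vertical axis, FPKM) in the 16 skin libraries, by group, with the replicate numbers of the DTR libraries. DTR libraries 1 and 2 are low in both genes (74.8 and 79.3 FPKM of Ide, 2.65 and 2.87 FPKM of Fgfbp3), and libraries 3 and 4 lie beside the Cre libraries.

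Glo1, which detoxifies methylglyoxal, gave no step in skin. On chromosome 17 (30729806 to 30749604) it averaged 43.5 ± 1.15 FPKM in DTR and 46.9 ± 0.882 FPKM in Cre skin, and 47.8 ± 4.28 FPKM in β-alanine and 48.0 ± 2.59 FPKM in PBS skin (SD, n = 4 each). DTR lay below Cre without overlap, by a factor of 0.927. Its partner Hagh and Btbd9, part of which lies in the known Glo1 duplication, overlapped between DTR and Cre skin, with log2 differences of -0.16 and 0.06. Btbd9 averaged 4.29 FPKM in DTR and 4.09 FPKM in Cre skin.

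Wdfy1, a protein of endosomal membranes on chromosome 1 (79698836 to 79758344), was lower in DTR skin at 3.04, 3.09, 2.69 and 2.86 FPKM, against 4.40, 4.00, 4.06 and 3.51 FPKM in Cre skin, without overlap. β-alanine skin had 3.90 to 5.06 FPKM and PBS skin 4.43 to 4.62 FPKM, which overlapped. Over all 9 genes, all of which passed the filter, 2 lay above, 4 below and 3 overlapped in DTR against Cre skin, where 21.4% of filtered genes did not overlap (11.8% above and 9.6% below). In β-alanine against PBS skin 1 lay above, 2 below and 6 overlapped, against a background of 6.44% (0.869% above and 5.57% below). In Cre against PBS skin 7 did not overlap (background 51.5%), and in DTR against PBS skin 8 did not (background 52.5%). Skin values chose members of the set, so nothing is read from these counts.

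In cultured cells labelled C57BL/6J, Wdfy1, Entpd4 and Ide differed between glutamate and vehicle. Wdfy1 had 4.52, 5.66, 4.46 and 5.43 FPKM with glutamate, against 1.01, 0.733, 0.888 and 0.876 FPKM with vehicle for 6 h. Every glutamate library lay far above every vehicle library, and the log2 change of 1.68 (SE 0.08, limma adjusted p = 1.27e-09) was the 31st highest of 8297 genes. Wdfy1 passed the filter only through its glutamate libraries, so nothing is read from this p-value or rank. Entpd4 had 2.14, 2.64, 2.21 and 2.28 FPKM with glutamate, against 9.42, 8.29, 8.52 and 7.66 FPKM with vehicle, a change of -1.51 (SE 0.08, adjusted p = 1.22e-09). Ide had 5.11, 4.94, 4.59 and 4.62 FPKM with glutamate, against 10.5, 10.6, 8.51 and 10.1 FPKM with vehicle, a change of -0.91 (adjusted p = 9.46e-08). These groups did not overlap in any of the 3 genes.

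The median change over all genes tested with glutamate was -0.33, while total FPKM was higher, at 429502 to 432984 with glutamate and 378212 to 389859 with vehicle. Mast cell markers summed to 92454 to 94389 FPKM with glutamate and 67905 to 70554 FPKM with vehicle, and their part in the lower median was not tested. Of these 9 markers 6 were called higher and 2 lower with glutamate, against 16.9% and 62.4% of all genes. Relative to the median, Wdfy1 stood at 2.01, Entpd4 at -1.18 and Ide at -0.58. Of 8 tested genes of the set 6 were called, 2 higher and 4 lower, against 79.3% of all genes (16.9% higher and 62.4% lower). The other calls beside Psmc3ip were Sdr39u1 (-0.34) and Nnt (-0.42), which stood at -0.01 and -0.09 relative to the median. With libraries centred on their medians Sdr39u1 turned to 0.07 and Nnt to -0.01, both without a call. Alad was not called at -0.09 (adjusted p = 0.241), and turned to 0.33 (adjusted p = 0.000916) with centring, as Glo1 went to 0.43.

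**Figure D5:**
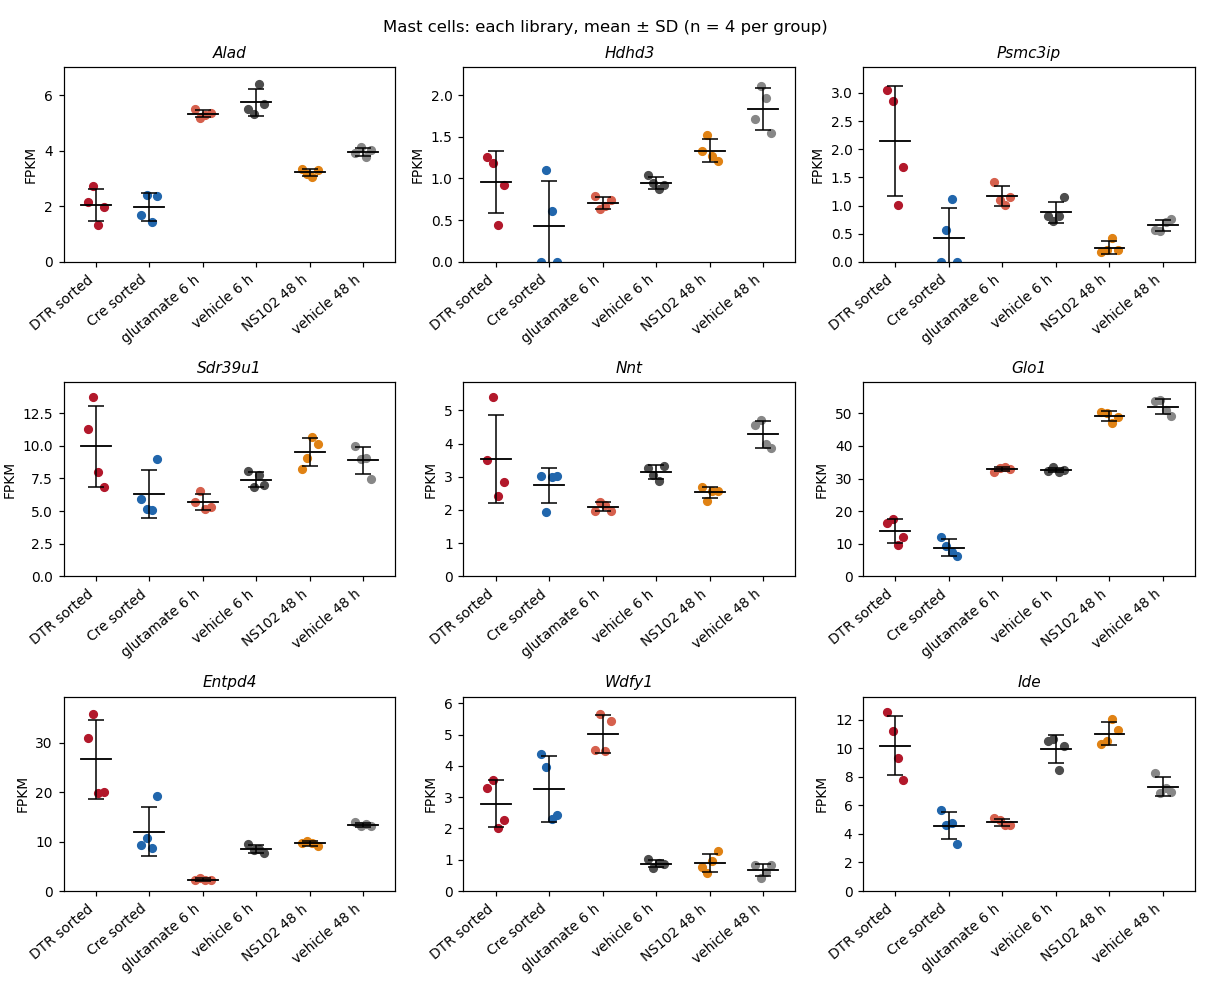
FPKM (vertical axis, from 0) of the 9 genes in each mast cell library, by group (horizontal axis). Points are libraries and bars the mean ± SD of 4, with SD bars cut off at 0; glutamate libraries are high for Wdfy1 (5.02 FPKM on average) and low for Entpd4 (2.32 FPKM), and sorted DTR cells are above sorted Cre cells for Ide.

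NS102 moved Ide up, and Nnt and Alad down. Ide rose to 10.3, 10.5, 12.03 and 11.3 FPKM with NS102, against 8.28, 6.87, 7.18 and 6.90 FPKM with vehicle for 48 h, a change of 0.53 (SE 0.07, limma adjusted p = 4.41e-05). Nnt fell to 2.68, 2.28, 2.57 and 2.58 FPKM with NS102, against 4.55, 4.70, 3.99 and 3.88 FPKM with vehicle (-0.58, adjusted p = 3.25e-05). Alad had 3.35, 3.17, 3.06 and 3.29 FPKM with NS102, against 3.91, 4.12, 3.77 and 4.04 FPKM with vehicle (-0.23, adjusted p = 0.00704). The NS102 libraries were all above vehicle for Ide and all below for Nnt and Alad. Entpd4 (-0.44) and Hdhd3 (-0.28, adjusted p = 0.0106) also fell, so 5 of 7 tested genes were called, against 70.5% of all genes (30.8% higher and 39.7% lower); Psmc3ip and Wdfy1 did not reach the filter.

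The vehicle cultures themselves differed. All 7 tested genes were called between 48 h and 6 h of vehicle, against 71.9% of all genes (34.2% higher and 37.7% lower), and both sets of libraries also serve the comparisons above. Alad averaged 3.96 ± 0.152 FPKM at 48 h and 5.74 ± 0.473 FPKM at 6 h (-0.44, limma adjusted p = 5.89e-05), while Hdhd3 averaged 1.83 ± 0.255 FPKM at 48 h and 0.945 ± 0.0695 FPKM at 6 h (0.54, adjusted p = 2.03e-05; SD, n = 4 each). The neighbours that stepped together in skin thus went in opposite directions here. Hdhd3 passed the filter through its 48 h libraries, so nothing is read from its p-value. Glo1 (0.66), Entpd4 (0.61), Nnt (0.35) and Sdr39u1 (0.23, adjusted p = 0.0240) were higher at 48 h and Ide (-0.40) lower. The Sdr39u1 call did not pass when any of 5 single libraries was left out. The medium differed between the times as well as the duration, and these cannot be told apart.

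DTR and Cre mice bear different strain labels, which differ together with the labelled treatment and cannot be told apart from it. The DTR and Cre libraries were pooled here against the C57BL/6J label. In that comparison none of the 9 genes separated in both skin and mast cells. Sdr39u1, Nnt, Entpd4 and Ide separated in skin, and their sorted and cultured mast cell libraries overlapped, as with Ide at 3.32 to 12.5 FPKM in sorted and 4.59 to 12.03 FPKM in cultured cells. Alad and Glo1 were lower in every sorted than in every cultured library, at 1.33 to 2.72 FPKM in sorted and 3.06 to 6.41 FPKM in cultured cells for Alad, and overlapped in skin. Among all filtered genes 24.4% did not overlap in the skin comparison. The share of all genes was not computed for sorted against cultured cells, so nothing is read from these counts. In mast cells the label also goes with the tissue of origin, sorting, culture and the sex pattern, and these cannot be told apart.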

How the data were processed

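The authors deposited 1 table of FPKM values for 40 libraries, made with STAR and Cufflinks on mm9, per the submitters' processing notes; versions, annotation, strand use and further scaling are not given in the sources used here, and single-end and paired-end libraries are not told apart. The unit was inferred from the values. Depth is unknown, so no counting interval is given. Values were taken as log2(FPKM + 1). A gene entered the fit when 4 or more of the 8 libraries reached 1 FPKM. Such genes were tested with limma 3.58.1 (R 4.3.3, moderated, trend, two-sided) in 4 mast cell comparisons, and p-values were adjusted by Benjamini-Hochberg over all genes tested; an adjusted p under 0.05 is a call. Fitted changes understate those of low genes. A gene could pass the filter through its higher group alone. Psmc3ip in sorted and glutamate-treated cells, Wdfy1 with glutamate and Hdhd3 at 48 h did so, and the counts of called genes include them. Python 3.11.15 with pandas 2.3.3 gave the descriptions. The fit was tested on simulated data. The 9 genes and all lists were chosen with earlier results of these data known. Named beside them were the 3 nearest genes of the table on each side, the 3 genes most like each in skin, and list genes; genes outside that rule are said to come from the values. Alternatives were pseudocounts of 0.1 and 5, no filter, a filter of 5 FPKM, median centring, limma without trend, the replicate number as a block and leaving out each library.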

Additional observations from a re-analysis of the deposited data

Results flagged for a closer look

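In 90 sets of 4 libraries (9 genes in 10 groups), 4 held a library apart from its other 3 by Dixon's criterion, where chance gives about 1 in 20. Psmc3ip stood at 11.8 FPKM in Cre skin library 1, above the others at 11.1 to 11.2 FPKM, and at 0.416 FPKM in NS102 library 3, above the others at 0.172 to 0.212 FPKM. Nnt stood at 1.95 FPKM in sorted Cre library 2, below the others at 2.98 to 3.04 FPKM. Wdfy1 stood at 4.43 FPKM in PBS skin library 2, below the others at 4.59 to 4.62 FPKM.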

How the results depend on the processing

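Of 438 single-gene changes recomputed under an alternative, 411 kept their direction and call, 5 turned and 22 changed call. With a filter of 5 FPKM the calls over all genes were 1897 of 4362 in sorted cells (against 3173), 3962 of 4848 with glutamate (against 6580), 3757 of 4929 with NS102 (against 5902) and 3888 of 5045 between vehicle times (against 6087), since fewer genes were tested. Of the set, 2 of 4 tested genes were called in sorted cells, 3 of 5 with glutamate, 2 of 4 with NS102 and 5 of 5 between vehicle times. Median centring called 5 of the 8 genes of the set tested in sorted cells, adding Glo1 and Sdr39u1, and 4216 of all 8871 genes there. It put glutamate calls at 3703 higher and 2611 lower, against 1403 higher and 5177 lower. It turned glutamate Alad to 0.33 and Sdr39u1 to 0.075. Sorted Alad turned to -0.072, -0.015 and -0.061 without DTR library 2, Cre library 1 or Cre library 3, within a range of -0.072 to 0.151 over single libraries left out. Leaving out 1 library gave 2394 to 3248 calls in sorted cells, 5869 to 6416 with glutamate, 5303 to 5672 with NS102 and 5482 to 5968 between vehicle times. Of the tested genes of the set it called 3 to 4 of 8 in sorted cells, 5 to 6 of 8 with glutamate, 5 of 7 with NS102 and 6 to 7 of 7 between vehicle times. Libraries with the same replicate number did not deviate together (correlations of deviations from -0.248 to 0.464, never all above 0.1 in a comparison), so the number does not pair them; 1 to 3 of 4 libraries matched their own number best. With the replicate block, calls were 3272 in sorted cells, 6629 with glutamate, 5642 with NS102 and 6319 between vehicle times, and Glo1 passed in sorted cells (adjusted p = 0.0373). In skin, 366 of 396 differences moved by less than the spread between libraries. Limits are the unknown depth, no exon-level values and no genotypes.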
